A study of Mus musculus with 4 samples.

Results

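The cell cycle genes described here are 40 genes chosen by symbol from textbook knowledge of the cycle, 17 that act mainly in S phase, when DNA is copied, and 23 that act mainly in G2 and M phase, when the cell prepares for and carries out division. Their probes were found by the gene name in the scanner files on all 4 arrays of the study. The 40 genes carry 56 probes, out of 55681 probes in all, and each gene is represented by the probe with the highest mean log2 processed signal. For comparison, the 22290 genes whose name in the files is also in RefSeq's mouse gene table were reduced to 1 probe each in the same way.

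The arrays hold Cy3-labelled RNA of pancreatic islets of 24-week-old C57BL/6 mice, freshly isolated with collagenase and density gradients and picked by hand, and each of the 4 groups has a single array. Wild-type males (male WT) stood beside males that carried a transgene and were labelled as diabetic (male Tg), transgenic males 6 weeks after an implant, labelled Tg-E2-implanted (male Tg E2), and females with the transgene (female Tg). E2 is the usual abbreviation of estradiol. The labels used here name neither the transgene nor its promoter, leave the number of pooled animals unstated, and give no diabetic state for the last 2 groups. The 4 arrays share 1 slide and 1 scan time. Without replicates no p-value is given, and every difference is one between single arrays, which the number of arrays limits in precision. It is given as log2 with the standard error (SE) of the scanner software's own error model, which covers spot and array error and not variation between mice. A probe counts as measured in a comparison when the scanner software called it well above background on both arrays, and a gene is counted as higher or lower when the difference is at least 2-fold.

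Most adult islet endocrine cells are out of the cell cycle, and beta cells in particular divide rarely in grown mice. When a cell enters the cycle, cyclin E with its kinase and the E2F factors switch on genes for loading the MCM helicase onto DNA and for making nucleotides, which peak around S phase. Later FOXM1, B-MYB and the DREAM and MuvB complexes control genes for cyclin B, the mitotic kinases, centromere proteins and spindle motors, which peak in G2 and M phase. Such transcripts are scarce in resting tissue, so their level in bulk RNA is widely used as a sign of how many cells cycle. In bulk islet RNA, fewer cells of a type and less RNA per cell cannot be told apart, and the cell type in which a gene was transcribed is not recorded.

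The upstream sequence of the members is shown because this control acts through short motifs close to the start. RefSeq sequence (build GRCm38.p6) was matched by symbol for 32 of the 40 members. The 250 bases before each start were searched on both strands for the CHR element (TTTGAA or TTCGAA), the CCAAT box (CCAAT) and 4 forms of an E2F site, which were TTCCCGC, the similar form TTGGCGC, then also TTCGCGC and lastly TTGCCGC. E2F forms can overlap each other or a CCAAT box. The CHR letters stood before 8 of 18 G2 and M phase members (44.4%), 2 of 14 S phase members (14.3%) and 19.6% of 27025 genes in the table. CCAAT was found before 16 of the 18 G2 and M phase members (88.9%), 8 of the 14 S phase members (57.1%) and 37.5% of all genes. E2F letters were found before 3 (16.7%), 6 (42.9%) and 9.01%, respectively. All 8 G2 and M phase members with CHR letters also held CCAAT, a pair found before 7% of all genes. The lines below give the 120 bases before the start, 5′ to 3′ on the gene's strand, with motif letters in capitals. The 8 genes were chosen after their values were seen, and a match is a description of letters and not a shown binding site.
Cdc20 (chr4:118437344-118437463, minus strand): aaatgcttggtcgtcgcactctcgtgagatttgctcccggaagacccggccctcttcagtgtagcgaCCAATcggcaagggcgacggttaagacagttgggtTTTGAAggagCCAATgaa
Ube2c (chr2:164769809-164769928, plus strand): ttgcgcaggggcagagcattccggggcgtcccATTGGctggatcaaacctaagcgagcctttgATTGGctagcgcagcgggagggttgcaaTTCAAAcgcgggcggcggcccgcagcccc
Mki67 (chr7:135716380-135716499, minus strand): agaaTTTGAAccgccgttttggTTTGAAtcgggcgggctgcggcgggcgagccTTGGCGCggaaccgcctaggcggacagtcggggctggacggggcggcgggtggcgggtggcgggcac
Ccnb2 (chr9:70421555-70421674, minus strand): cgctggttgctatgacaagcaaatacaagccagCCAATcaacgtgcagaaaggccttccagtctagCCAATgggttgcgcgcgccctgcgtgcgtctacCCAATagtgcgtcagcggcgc
Aurka (chr2:172370571-172370690, minus strand): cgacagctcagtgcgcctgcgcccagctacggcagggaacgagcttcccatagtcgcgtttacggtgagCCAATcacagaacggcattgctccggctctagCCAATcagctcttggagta
Mcm6 (chr1:128359706-128359825, minus strand): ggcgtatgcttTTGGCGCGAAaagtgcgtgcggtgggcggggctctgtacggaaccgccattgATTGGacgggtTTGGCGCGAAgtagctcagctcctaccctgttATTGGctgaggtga
Rrm1 (chr7:102441575-102441694, plus strand): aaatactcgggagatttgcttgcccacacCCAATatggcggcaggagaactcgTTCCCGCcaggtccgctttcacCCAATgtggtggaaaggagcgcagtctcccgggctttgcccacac
Tk1 (chr11:117826015-117826134, minus strand): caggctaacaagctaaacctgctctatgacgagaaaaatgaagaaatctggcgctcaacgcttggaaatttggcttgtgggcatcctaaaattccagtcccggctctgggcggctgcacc
Cdc20 has a CHR element ending 13 bases before the start with a CCAAT box on either side, and Ube2c has one ending 24 bases before the start with CCAAT boxes upstream. Mki67 carries 2 CHR elements and an E2F form, Ccnb2 has 3 CCAAT boxes in the stretch shown and its CHR letters further upstream, and Aurka has CCAAT boxes alone. Mcm6 has E2F letters at 2 places, each made of overlapping forms on both strands, together with CCAAT boxes. Rrm1 has 1 between CCAAT boxes, and Tk1 has none of these letters within the 250 bases searched.

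**Figure D1:**
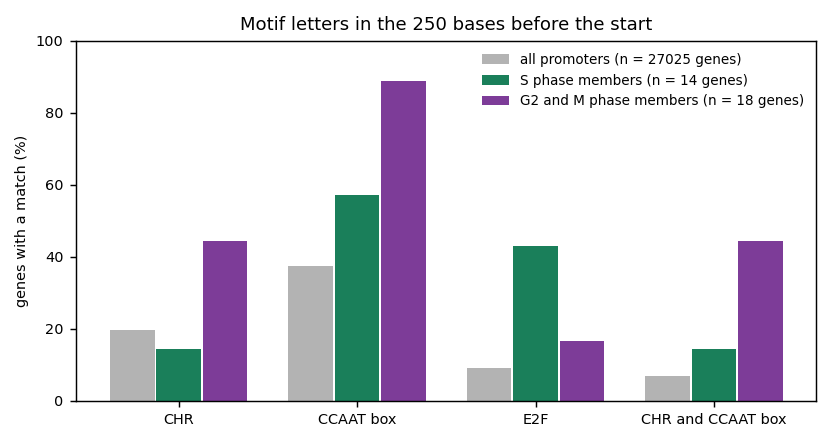
Share of genes (vertical axis, percent) whose 250 bases before the start hold the letters of each motif (horizontal axis), for all promoters of the RefSeq table, the 14 S phase members and the 18 G2 and M phase members with an entry. CHR and CCAAT letters are most frequent in the G2 and M phase bars (44.4% and 88.9%) and E2F letters in the S phase bar (42.9%).

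The well-above-background call was met by between 49.9% and 54.8% of spots per array, no spot was saturated, and between 103 and 125 spots per array carried an outlier flag and were left out, which changed no value of a member. The 75th percentile of processed intensity, which is set to 0 on the log2 scale used here, was 410 for male WT, 230 for male Tg, 338 for male Tg E2 and 294 for female Tg, and all further sets of 4 values follow this order. Among islet markers, all 12 beta cell genes and all 9 alpha and delta cell genes were well above background on all 4 arrays. Repeat spots of a probe scattered by 0.0630 to 0.0717 log2 within an array (median standard deviation of probes with 10 spots). In male Tg minus male WT, 2223 genes were higher and 1311 lower. With the arrays' medians aligned in place of the 75th percentiles these became 1725 and 3113, and with percentiles over probes above background on all arrays 2588 and 783. With the 75th percentile scaling used here, the median over all measured genes was −0.22 log2, and the differences of members stand against it.

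Of the 40 members, 30 were well above background on all 4 arrays (15 of 17 S phase and 15 of 23 G2 and M phase genes), 5 on some and 5 on none. The 5 on none were Ccne2, Cdk1, Aurkb, Bub1 and Kif11, so the central mitotic kinase gene Cdk1 has no measured difference on this array design. The 5 on some were Cdc6, Top2a, Bub1b, Cenpf and Kif23. These passed only through the arrays where they read high, so they enter no count or median in the comparisons where they were unmeasured. Among the 15 G2 and M phase members measured on all arrays, male WT read lowest for 14 and male Tg highest for 11. The 11 genes with both properties make 73.3% of that list, against 4 of 15 S phase members (26.7%) and 13.5% of 13847 genes overall. Over all of those genes male WT was lowest for 22.1% and male Tg highest for 25.1%. Every comparison below uses the male Tg or the male WT array, so values of comparisons that share an array are set side by side and not counted as separate evidence.

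**Figure D2:**
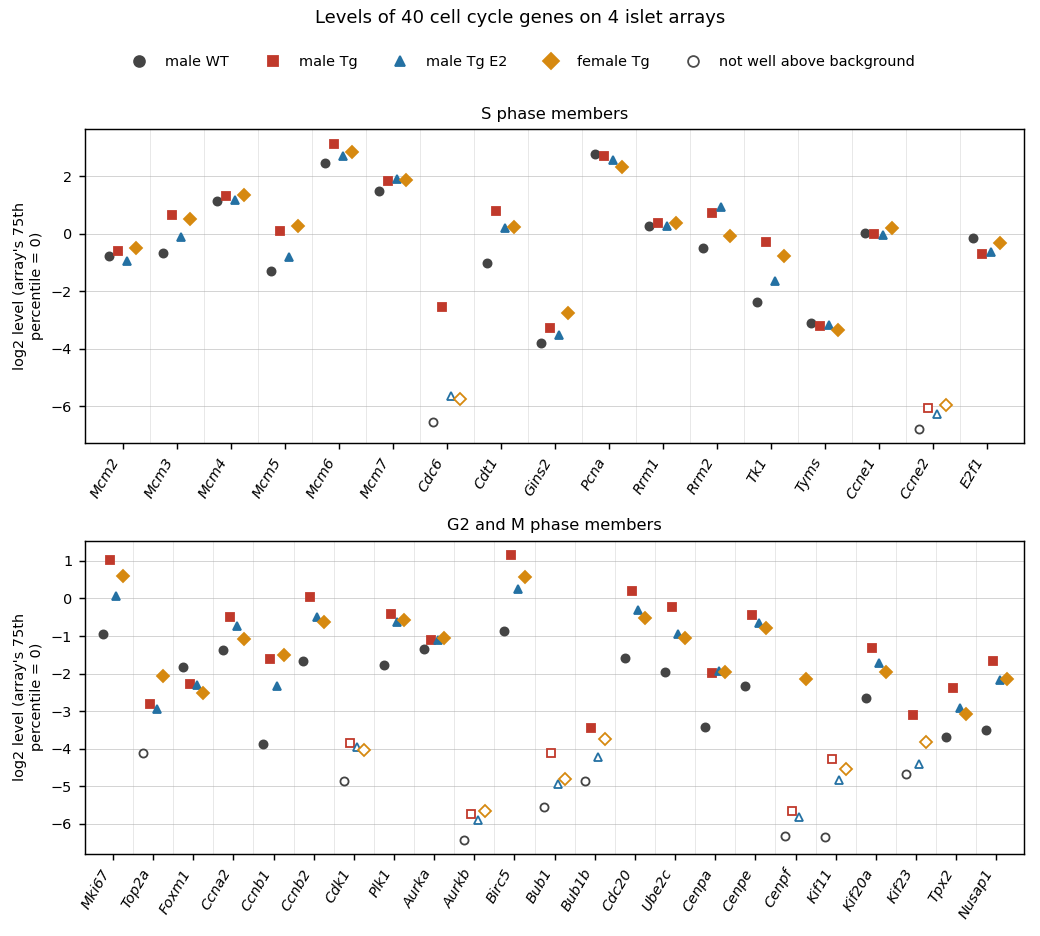
Level of each cell cycle gene (vertical axis, log2 processed intensity with the array's 75th percentile at 0) on the 4 arrays, 1 point per array, with S phase members above and G2 and M phase members below. Open symbols are not well above background. In the lower panel the male WT point is lowest for 14 of the 15 genes measured on all arrays, Foxm1 being the exception.

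Cell cycle genes were higher on the male Tg than on the male WT array, mostly in G2 and M phase. This comparison asks what goes with the transgene and the diabetes in male islets. Of 15 measured G2 and M phase members 12 were at least 2-fold higher and none lower, with a median difference of 1.69 log2. Of 15 measured S phase members 5 were higher and none lower, with a median of 0.36. The background over 14342 measured genes was 15.5% past 2-fold upwards and 9.14% downwards. In size, 13 G2 and M phase members and 6 S phase members exceeded 2 SE upwards, and E2f1 alone did so downwards. With background modelled by normexp and quantile normalization, 6 in place of 12 G2 and M phase members were at least 2-fold higher, and their median was 0.76. In that setting 1598 of all 14342 genes were higher, in place of 2223. With median scaling the S phase median was 0.017, while the median of all genes was −0.56 in place of −0.22. On the same arrays 10 of 12 measured lymphocyte, 13 of 15 acinar and 8 of 8 red cell markers were at least 2-fold higher. So were 9 of 9 stellate cell and matrix, 7 of 9 alpha and delta cell and 5 of 11 macrophage markers. Of 12 beta cell markers 9 were at least 2-fold lower. The part of these lists in the result was not tested.

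The proliferation marker Mki67, whose product coats mitotic chromosomes and is absent from resting cells, read −0.94, 1.01, 0.07 and 0.59. All 3 Tg arrays lay above male WT, and male Tg was highest. Its processed intensity before any scaling was 214, 464, 355 and 444, so male Tg was also highest without scaling, although that array had the lowest 75th percentile. In male Tg minus male WT the difference was 1.95 ± 0.21 (SE, 1 array each), a 3.87-fold higher level, and the other Mki67 probe gave 2.06. The probe lies on mm9 at chr7:142881591-142881650. Top2a, the topoisomerase that untangles copied chromosomes, read −4.10, −2.80, −2.95 and −2.05 and did not clear background on male WT. It read 2.46-fold higher on the male Tg array and 4.14-fold higher on the female Tg array, each against the male WT reading itself. That reading had an SE of 0.32, so these folds are rough and not strict lower bounds. For other genes "at least" marks an approximate lower bound. The dim array then enters with its own reading or its lowest level well above background, whichever is higher.

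The B cyclins were higher on the transgenic arrays than on male WT. Ccnb1, the B cyclin that activates CDK1 at entry into mitosis, read −3.87, −1.61, −2.33 and −1.51. Its other probes were well above background on no array. Male WT stood apart below, and female Tg and male Tg lay closest together at the top. The difference 2.26 ± 0.32 of male Tg from male WT was the largest of any measured member, on a probe of low intensity (28.1, 75.6, 67.3 and 103), and it was 0.76 after normexp and quantile normalization. Its partner Ccnb2 read −1.66, 0.04, −0.50 and −0.62, with a difference of 1.69 ± 0.21. Ccna2, the cyclin A that acts in both S phase and G2, differed less and read −1.36, −0.48, −0.73 and −1.08, a difference of 0.88 ± 0.21. It passed 2-fold with the percentile over detected probes and relative to the median of all genes. For Ccna2 the female Tg level was within 2 SE of male WT. Plk1, a kinase of mitotic entry and spindle assembly, read −1.78, −0.41, −0.63 and −0.58 and differed by 1.37 ± 0.21, with the 3 Tg arrays nearly level. Aurka, the centrosomal kinase, read −1.36, −1.11, −1.12 and −1.06, and in none of the 5 comparisons did it differ beyond 2 SE.

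Foxm1, which encodes a factor that switches on many of the other G2 and M phase genes, had the opposite sign. It read −1.82, −2.29, −2.29 and −2.51, highest on male WT, and male Tg differed from male WT by −0.46 ± 0.24, within 2 SE. This was the only measured G2 and M phase member with a lower value on male Tg, and its second probe was not well above background on any array. E2f1, an activator of S phase genes, resembled it with levels of −0.14, −0.68, −0.64 and −0.32 and a difference of −0.54 ± 0.21. Ccne1, the cyclin E that starts S phase, was level at 0.02, 0.01, −0.04 and 0.22. None of these 3 regulators was higher on male Tg beyond 2 SE.

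The measured genes of the chromosome passenger complex (1 of 2) and of the checkpoint and the anaphase-promoting complex (2 of 4) were higher, and neither spindle checkpoint gene was measured on both arrays. Birc5, which encodes the passenger protein survivin, read −0.87, 1.16, 0.26 and 0.58 and was 4.08-fold higher on male Tg than on male WT (difference 2.03 ± 0.21). Its order of arrays was that of Mki67. A second Birc5 probe read −3.93, −2.33, −3.33 and −2.73, in the same order, whereas the remaining probe was above background only on male Tg and male Tg E2 and read higher on the latter (−3.37 and −2.40). In male Tg E2 minus male Tg that probe thus goes against the other 2. Cdc20, an activator of the anaphase-promoting complex, read −1.57, 0.19, −0.31 and −0.51 and differed by 1.76 ± 0.21. Ube2c, the ubiquitin-conjugating enzyme that works with that complex, read −1.95, −0.23, −0.95 and −1.06 and differed by 1.72 ± 0.22, with a second probe at 1.90. Bub1b, a spindle checkpoint kinase gene, was above background on male Tg alone and at least 1.97-fold higher there than on male WT. That direction was fixed by the background filter and adds nothing to the measured genes.

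Centromere and spindle genes followed the same pattern with some exceptions. Cenpe, a kinesin that carries chromosomes to the spindle centre, read −2.33, −0.44, −0.67 and −0.78, a difference of 1.89 ± 0.23. Cenpa, the centromere-specific histone, read −3.41, −1.98, −1.94 and −1.95: the 3 Tg arrays were close together and all were above male WT, by 1.43 ± 0.27 for male Tg. Cenpf, a protein of the outer kinetochore, cleared background on female Tg alone. Its processed intensity was 5.11, 4.6, 5.99 and 67, and female Tg was at least 4.92-fold higher than male WT and at least 3.01-fold higher than male Tg. It has a single probe, on mm9 at chr1:191464978-191465037. Among spindle genes, Nusap1, which bundles microtubules, read −3.50, −1.67, −2.18 and −2.14 and differed by 1.83 ± 0.27. The motor gene Kif20a read −2.66, −1.33, −1.72 and −1.95 and Tpx2, which nucleates spindle microtubules, read −3.70, −2.39, −2.92 and −3.07, with differences of 1.33 ± 0.24 and 1.31 ± 0.33. The second Tpx2 probe was well above background on no array. Kif23, a motor of cell separation, was above background on male Tg alone, at least 2.5-fold above male WT. That direction was fixed by the background filter, so Kif23 is no instance of the pattern. The differences of Ccnb1, Plk1, Cenpa, Kif20a, Tpx2 and Nusap1 fell under 2-fold in at least 1 of the alternative settings, and none changed sign.

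S phase genes split into genes that differed and genes that were level. Within the MCM helicase, which unwinds DNA at forks as a ring of 6 subunits, the subunits differed unequally. Mcm5 read −1.30, 0.10, −0.79 and 0.27 and Mcm3 read −0.68, 0.65, −0.10 and 0.50, with male Tg above male WT by 1.41 ± 0.21 and 1.33 ± 0.21. A second Mcm3 probe gave 1.34. Mcm3 fell under 2-fold with median scaling (0.99) and Mcm5 after normexp with quantile normalization (0.94). For these subunits female Tg stood beside male Tg, and male Tg E2 lay between them and male WT. Mcm6 was intermediate, with levels of 2.45, 3.14, 2.70 and 2.86 and a difference of 0.69 ± 0.20. Mcm2 (0.19), Mcm4 (0.15) and Mcm7 (0.36) were within 2 SE of 0.

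Of 3 genes that load or activate the helicase 2 were measured and 1 was at least 2-fold higher. Cdt1, which loads the MCM ring at origins, read −0.99, 0.79, 0.22 and 0.23 and was 3.46-fold higher on male Tg than on male WT (difference 1.79 ± 0.21). Cdc6, its partner in loading, was above background only on the male Tg array, so the direction of its "at least" values was fixed by that filter. Its intensity was 4.41, 39.2, 6.83 and 5.51, and male Tg was at least 3.68-fold above male WT and at least 2.57-fold and 2.08-fold above male Tg E2 and female Tg. The second Cdc6 probe was above background on no array. Gins2, a subunit of the GINS complex that joins the active helicase, read −3.81, −3.26, −3.50 and −2.75. It was highest on female Tg, and male Tg differed from male WT by 0.55 ± 0.35, which is within 2 SE.

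Among genes of nucleotide supply and the replication clamp, Tk1 and Rrm2 differed and the others were level. Tk1, the thymidine kinase that is broken down outside S phase, had the largest S phase difference. It read −2.37, −0.28, −1.62 and −0.78, 4.23-fold higher on male Tg than on male WT (2.08 ± 0.22). The other Tk1 probes were well above background on no array. Rrm2, the regulated subunit of ribonucleotide reductase, read −0.50, 0.73, 0.95 and −0.06, with male Tg E2 highest and a male Tg difference of 1.23 ± 0.21, which was 0.89 with median scaling and 0.97 after normexp with the 75th percentile. Rrm1, the stable subunit of the same enzyme, was level at 0.26, 0.38, 0.29 and 0.39. Pcna, the sliding clamp, read 2.79, 2.71, 2.56 and 2.33, and Tyms, thymidylate synthase, read −3.11, −3.19, −3.17 and −3.33. For Rrm1, Pcna and Tyms the male Tg and male WT arrays were within 2 SE of each other.

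**Figure D3:**
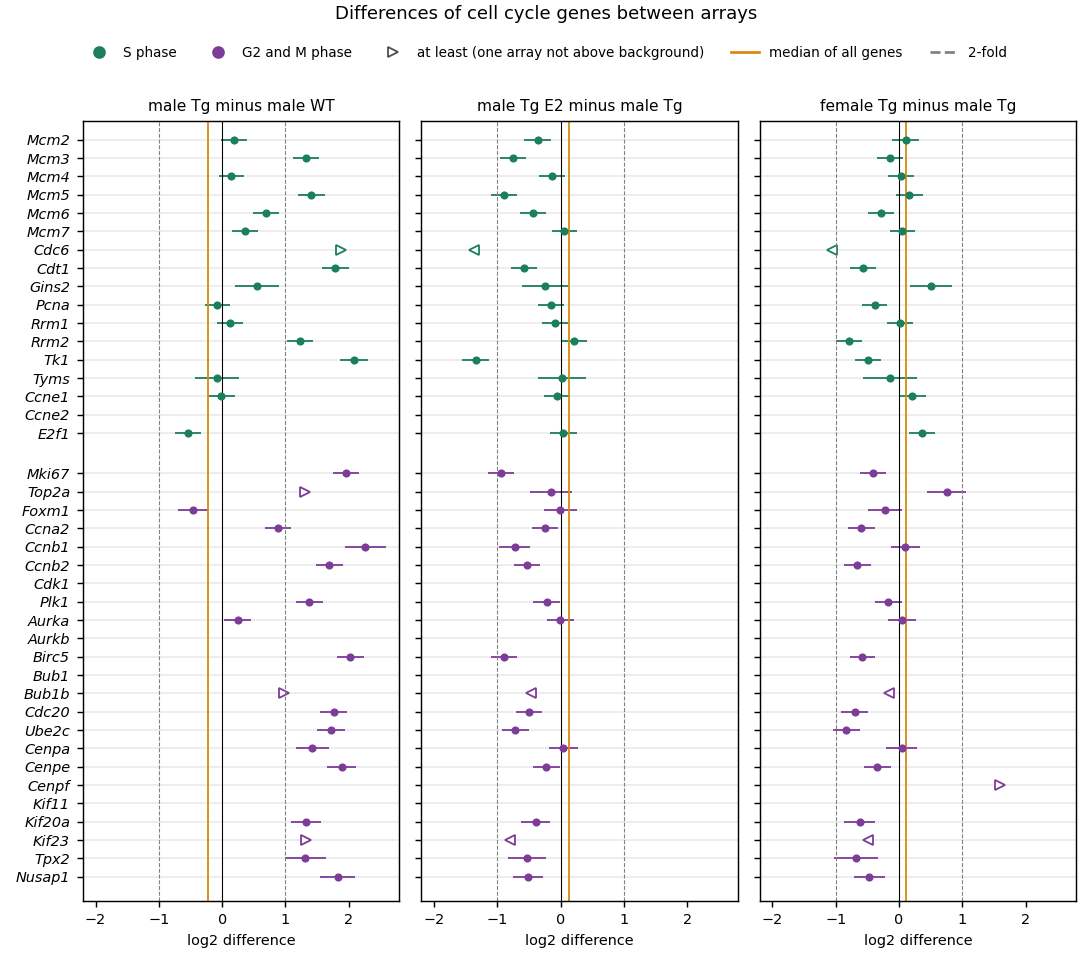
Log2 difference (horizontal axis) of each cell cycle gene in the 3 comparisons, 1 panel each, with bars of 1 SE of the scanner software's error model. Open triangles are "at least" values, dashed lines mark 2-fold and the orange line is the median of all genes. On the left 12 G2 and M phase points lie beyond 2-fold, while in the middle and right panels no measured G2 and M phase point does.

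What goes with the implant in transgenic males is the question of male Tg E2 against male Tg. G2 and M phase genes were slightly lower on the male Tg E2 array, and few differences were large. Of 16 measured members, 15 were negative, 7 of them beyond 2 SE, and none reached 2-fold in either direction, with a median of −0.45 log2. Of 15 measured S phase members 1 was at least 2-fold lower and none higher, with a median of −0.15, and that median ran from −0.28 to 0.0066 over the alternative settings. Among 14575 measured genes 2.6% were past 2-fold upwards and 7.96% downwards, and the median was 0.13. Hence the share of members past 2-fold was near or below that of all genes, while their median lay on the other side of 0. Lymphocyte markers (9 of 11 at least 2-fold lower, median −1.83) and red cell markers (6 of 6, median −3.37) were lower on the same array, and their part in the result was not tested.

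The members that differed most were those that were high on male Tg. Tk1 was the S phase member past 2-fold, at −1.34 ± 0.22, and fell short of it after normexp (−0.97 and −0.93). It was followed by Mcm5 (−0.89 ± 0.21), Mcm3 (−0.76 ± 0.21) and Cdt1 (−0.57 ± 0.21). In G2 and M phase, Mki67 stood at −0.94 ± 0.21, Birc5 at −0.90 ± 0.20, Ccnb1 at −0.72 ± 0.25 and Ube2c at −0.72 ± 0.21. Mki67, Birc5 and Mcm5 passed 2-fold in some alternative settings, with Mki67 at −1.01 after quantile normalization. Cenpa (0.04), Aurka (−0.0045), Foxm1 (−0.0032) and Rrm2 (0.22) were level. Male Tg is the reference here and was the highest array for 11 of 15 G2 and M phase and 4 of 15 S phase members, so lower values on other arrays depend on that 1 array.

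Compared with male WT, the male Tg E2 array remained higher for G2 and M phase genes. Of 15 measured members 10 were at least 2-fold higher and none lower (median 1.13 log2), beside 8.76% higher and 2.7% lower of all 14542 genes. Cenpe (1.66), Ccnb1 (1.54), Cenpa (1.47), Nusap1 (1.32) and Cdc20 (1.26) led. S phase members had a median of 0.25 with 2 of 15 higher, Rrm2 (1.45) and Cdt1 (1.21), and none lower. Short of 2-fold, Foxm1 (−0.47 ± 0.23) and E2f1 (−0.50 ± 0.21) were lower by more than 2 SE. The G2 and M phase count depended on processing: it was 5 with median scaling, 1 after normexp with the 75th percentile and 0 after normexp with quantile normalization, although the median stayed positive, from 0.51 to 1.25. Over all genes 1045, 750 and 659 were at least 2-fold higher in these 3 settings, in place of 1274. On these arrays 13 of 15 acinar, 9 of 9 stellate cell and matrix and 7 of 11 lymphocyte markers were at least 2-fold higher. The same held for 6 of 9 alpha and delta cell and 5 of 12 macrophage markers. Red cell markers (5 of 6) and beta cell markers (4 of 12) were at least 2-fold lower, and the part of these lists was not tested.

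The comparison of female Tg with male Tg asks how transgenic islets differ by sex, without a wild-type female array to set beside it. No member reached 2-fold among the measured genes of either phase. The S phase median was 0.01 log2 over 15 genes and the G2 and M phase median −0.45 over 16 genes, 12 of them negative. Over all 14166 genes 3.67% were higher and 8.44% lower, with a median of 0.11. Ube2c (−0.83 ± 0.22), Cdc20 (−0.70 ± 0.21), Tpx2 (−0.68 ± 0.34) and Ccnb2 (−0.66 ± 0.21) were lowest in G2 and M phase, and Rrm2 (−0.79 ± 0.21) in S phase, of which Tpx2 was within 2 SE. Acinar markers (13 of 15 at least 2-fold lower, median −3.93), red cell markers (7 of 8, median −1.41) and stellate cell and matrix markers (6 of 10, median −1.06) were lower on the same array, and their part was not tested. Top2a was the only measured member higher by more than 2 SE (0.75 ± 0.30). Cenpf cleared background on female Tg alone, so it was unmeasured here, and its "at least" value given above could only be higher on female Tg. Ccnb1, Plk1, Cenpa, Mcm3 and Mcm5 were within 2 SE of male Tg.

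Against male WT, the female Tg array was higher for most G2 and M phase genes and for some S phase genes. Of 15 measured G2 and M phase members 9 were at least 2-fold higher and none lower (median 1.06), and of 15 S phase members 5 were higher and none lower (median 0.40). The background shares were 7.63% higher and 3.52% lower over 14177 genes. Ccnb1 led at 2.36, with Tk1 at 1.59, Mcm5 at 1.57, Cenpe at 1.54 and Mki67 at 1.54. The other S phase members past 2-fold were Cdt1 (1.22), Mcm3 (1.18) and Gins2 (1.05). Foxm1 was lower by more than 2 SE (−0.68 ± 0.25), and so was Pcna (−0.46 ± 0.20), while 7 of the 15 S phase members were within 2 SE of male WT. After normexp, 3 G2 and M phase members were past 2-fold with the 75th percentile and 2 with quantile normalization. The S phase count of 5 was 3 with median scaling and 3 and 1 after normexp. Over all genes 846 were higher with median scaling and 681 and 577 after normexp, in place of 1082. Lymphocyte (10 of 12, median 3.16) and stellate cell and matrix markers (7 of 9, median 2.07) were also at least 2-fold higher on female Tg. Alpha and delta cell markers (6 of 9, median 1.61) and macrophage markers (6 of 12, median 0.95) were too. Of 12 beta cell markers 3 were at least 2-fold lower. The part of these lists was not tested. No comparison of female Tg with male Tg E2 was made.

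Promoter letters did not sort the measured G2 and M phase members by size. In male Tg minus male WT the 4 with CHR letters (Mki67, Ccnb2, Cdc20 and Ube2c) lay between 1.69 and 1.95 log2. The 7 without them lay between 0.24 and 2.26, with a median of 1.83. Among the latter, Aurka and Plk1 have CCAAT boxes close to the start and differed by 0.24 and 1.37. In S phase, the median was 0.69 for the 5 measured members with E2F letters (from 0.12 to 1.41) and 0.09 for the 8 without (from −0.54 to 2.08), so the ranges overlapped. Of the genes printed above, Mcm6 and Rrm1 differed by 0.69 and 0.12, and Tk1, with none of the letters, by 2.08.

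Further genes of the same pathway came from lists written from general knowledge. In male Tg minus male WT their G2 and M phase median was below that of the members (0.60 against 1.69 log2). Their S phase median was nearly that of the members (0.32 against 0.36). The background in that comparison was 15.5% past 2-fold upwards and 9.14% downwards. Of 35 measured further S phase genes 10 were at least 2-fold higher and none lower, with a median of 0.32 log2. Uhrf1, which keeps DNA methylation on copied strands, stood at 1.91, the polymerase gene Pole at 1.79 and Gins1 at 1.37. Of 30 measured further G2 and M phase genes 8 were higher and 1 lower, with a median of 0.60. Psrc1 (2.01), Cdca5 (1.91), which protects sister chromatid cohesion, and the passenger gene Cdca8 (1.69) were highest. The lower gene was Spc25, named for the kinetochore, with levels of 7.17, 4.72, 6.49 and 5.81. Its neighbour on the chromosome in RefSeq is G6pc2, the islet glucose-6-phosphatase, which read 6.69, 3.998, 6.34 and 5.496 with the same order of arrays. The Spc25 differences were −2.45 in male Tg minus male WT, 1.77 in male Tg E2 minus male Tg and 1.09 in female Tg minus male Tg, against −2.69, 2.34 and 1.498 for G6pc2. It was the only gene of either further list past 2-fold in the last 2 comparisons, and whether its probe reads transcripts from G6pc2 was not tested.

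Genes that open or hold back the cycle were not higher on male Tg as a list. Of 29 measured entry genes and brakes none was higher and 2 were at least 2-fold lower on male Tg than on male WT, with a median of −0.36 log2. The share lower, 6.9%, was near the 9.14% of all genes. The 2 genes were Ccnd2, the main D cyclin of beta cells (−1.55, levels 5.90, 4.35, 5.13 and 5.34), and E2f5, an E2F that acts as a repressor (−1.497, levels −0.98, −2.48, −1.56 and −2.01). Cdk4, the kinase that partners D cyclins, differed by −0.87. The inhibitor genes Cdkn1a, Cdkn1b and Cdkn1c differed by 0.08, −0.57 and 0.80. Cdkn2a, Cdkn2b, Cdkn2c and Cdkn2d, also inhibitor genes, differed by −0.48, −0.70, −0.72 and −0.17. Mybl2, which encodes B-MYB, differed by 0.65. In male Tg E2 minus male Tg and in female Tg minus male Tg no gene of this list was past 2-fold, and Ccnd2 stood at 0.77 and 0.98. Cdk4, the inhibitors and Mybl2 were named after their values were seen.

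Marker genes of other cell types also differed between these arrays. The summed level of a list, on a linear scale with each array's 75th percentile at 1, was 4.25, 12.2, 8.34 and 9.21 for G2 and M phase members and 23.7, 32.3, 26.9 and 28.1 for S phase members. For 12 lymphocyte markers it was 15.7, 92.9, 25.1 and 67.8, all 12 being well above background except Cd8a on male Tg E2. Its most abundant genes were Igj, the antibody joining chain, at 0.86, 5.35, 2.70 and 4.21, the B cell receptor gene Cd79b at 0.51, 4.11, 2.30 and 3.99 and the T cell gene Cd4 at 2.11, 2.61, 1.95 and 1.44 on the log2 scale. For 10 stellate cell and matrix markers it was 11.8, 118, 92.8 and 51.1, with Pdgfra not above background on male WT. For 11 red cell markers it was 309, 1403, 163 and 483. Of these, 9, 8, 6 and 9 genes were above background. The early red cell factor gene Klf1 was so only on male WT, and Gata1 on all but male Tg E2. Klf1 nevertheless read −3.85 on male WT and −3.81 on male Tg. The lowest level called well above background was −4.43 on male WT and −3.72 on male Tg. Acinar markers, all 15 above background everywhere, summed to 1281, 11514, 7177 and 1381.

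Set against male WT, some marker lists ranked the transgenic arrays as the cell cycle genes did and others did not. Both member lists and the lymphocyte, red cell and alpha and delta cell markers had the order male Tg, female Tg, male Tg E2. Acinar, matrix, ductal, endothelial and beta cell markers had the order male Tg, male Tg E2, female Tg. G2 and M phase members stood at 2.87, 1.96 and 2.17 times male WT on the male Tg, the male Tg E2 and the female Tg array, and S phase members at 1.36, 1.13 and 1.18. In the same order the ratio was 8.99, 5.6 and 1.08 for acinar, 5.92, 1.6 and 4.32 for lymphocyte, 10.1, 7.89 and 4.35 for matrix and 4.54, 0.527 and 1.56 for red cell markers. Macrophage markers (12 genes, Fcgr1 not above background on male Tg) stood at 1.36, 1.28 and 1.37, endothelial markers (10 of 10) at 1.21, 1.2 and 1.13 and ductal markers (7 genes, of which Sox9, Muc1 and Cftr were not above background on some arrays) at 1.46, 1.27 and 0.66. Beta cell markers stood at 1.21, 0.961 and 0.929 and alpha and delta cell markers at 1.98, 1.55 and 1.64, sums that the hormone genes dominate. Counted by gene, 9 of 12 beta cell markers were at least 2-fold lower and none higher in male Tg minus male WT, with a median of −1.74 log2. In female Tg minus male Tg 6 of the 12 were at least 2-fold higher, and in male Tg E2 minus male Tg 4 were. By summed level, male Tg was the highest array for every list in this paragraph except macrophage markers, which were highest on female Tg. On female Tg the G2 and M phase ratio was 2.17, beside acinar, lymphocyte, matrix and red cell ratios of 1.08, 4.32, 4.35 and 1.56. On male Tg E2 it was 1.96, beside 5.6, 1.6, 7.89 and 0.527 for the same lists. The part of any of these cell types in the cell cycle values was not tested.

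**Figure D4:**
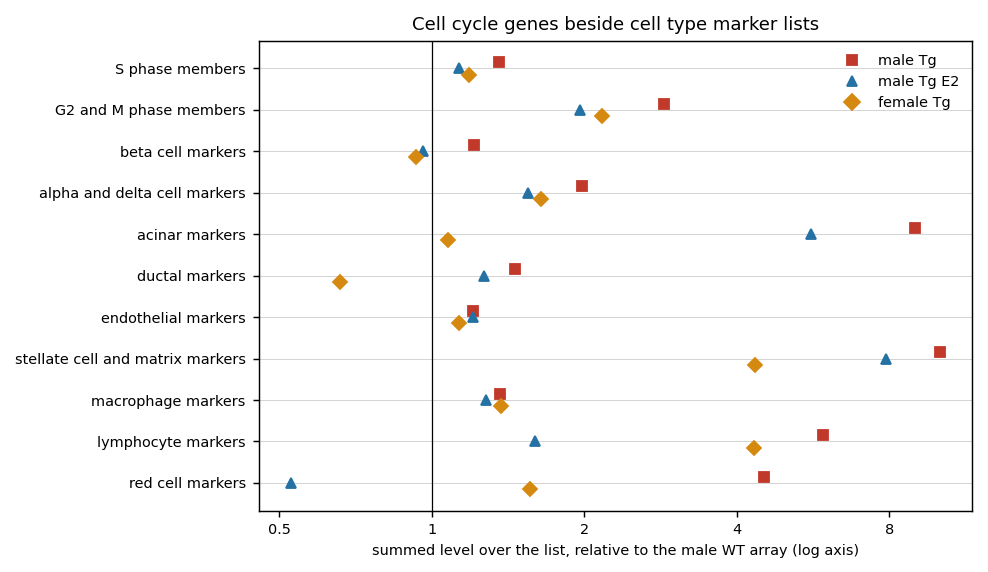
Summed level of the cell cycle genes and of cell type marker lists on the 3 transgenic arrays, relative to the male WT array (horizontal log axis, 1 = male WT), 1 point per array. G2 and M phase members lie between 1.96 and 2.87. Lymphocyte, red cell and alpha and delta cell markers place the 3 arrays in the same order as these members, and the other marker lists do not.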

How the data were processed

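The deposited scanner files hold, per the file headers, the processed Cy3 intensity of each spot from Agilent Feature Extraction 10.7.1.1, while the submitters' processing notes name version 9.5.1.1. The values are on a linear scale, and probe positions are on mm9. Of 59305 non-control spots, those flagged as outliers were left out. Intensities were put on the log2 scale, each array's 75th percentile was subtracted, spots of a probe were averaged, and the probe with the highest mean log2 signal stood for a gene. Differences carry the SE propagated from the software's error model. An "at least" value sets the bright array against the higher of the dim probe's own level and the lowest level well above background. It is an approximate bound, since the dim probe's own reading carries error. With 1 array per group no test across arrays was made. Further list genes were named by the largest differences past 2-fold, up to 4 per list, and marker genes by abundance. Some genes of these lists are not reported here by name. Members and lists were chosen with earlier results of these data known. Scaling, averaging of spots, choice of probe and differences were tested on simulated arrays, with differences placed in bright genes and no background filter. The simulation did not cover dim members, the background filter, "at least" values, SE, normexp or the motif search. The alternatives were quantile and median scaling, a percentile over detected probes, normexp with an offset of 50 (limma 3.58.1, R 4.3.3), the deposited normalized value table, no filter on dim probes, outlier spots kept, all probes of a gene averaged, centring on all genes, and 1.5-fold and 4-fold thresholds. Python 3.11.15 was used. Exon and UTR positions of probes were not assigned.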

Additional observations from a re-analysis of the deposited data

How the results depend on the processing

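In male Tg minus male WT, male Tg E2 minus male Tg and female Tg minus male Tg, no member past 2-fold reversed direction under the alternatives run. Single members were not followed across the alternatives in the 2 other comparisons with male WT. Of 17 members past 2-fold in male Tg minus male WT, 8 stayed so under every alternative other than the fold threshold and 9 did not, and Ccna2 passed 2-fold under 2 of them. The causes were not tested. Counts over all genes are not given at 1.5-fold, at 4-fold or relative to all genes. Member counts in those settings thus have no background beside them and are not read as results about the members. In male Tg minus male WT, the median of G2 and M phase genes was 1.35 with median scaling, 1.07 and 0.76 after normexp with the 75th percentile and with quantile normalization, 1.43 with no filter on dim probes and 1.92 relative to all genes, and the number at least 2-fold higher was 6 after normexp with quantile normalization and 2 at 4-fold. For S phase genes there, the median was 0.017 with median scaling and 0.58 relative to all genes, with 3 higher after median scaling and 1 at 4-fold. Over all genes there, 1725 were higher with median scaling and 1742 and 1598 after normexp, in place of 2223. In male Tg E2 minus male Tg, S phase genes at least 2-fold lower numbered 0 after either normexp setting and at 4-fold, 2 with no filter and relative to all genes, and 3 at 1.5-fold. G2 and M phase genes lower numbered 1 with quantile normalization, the percentile over detected probes, the deposited value table and no filter, 2 relative to all genes and 4 at 1.5-fold, and the median was −0.23 after normexp with quantile normalization. Over all genes 1160 were lower in the main setting, and 750 and 768 after normexp. The number was 1149 with quantile normalization, 1288 with the percentile over detected probes, 1157 with the deposited value table and 2440 with no filter. In female Tg minus male Tg, 1 S phase gene was lower with no filter and at 1.5-fold, 1 G2 and M phase gene was higher in the same settings, and 6 were lower at 1.5-fold. With no filter, 2643 of all 22290 genes were lower and 1133 higher. In male Tg E2 minus male WT, S phase genes higher numbered 1 after either normexp setting and 0 at 4-fold, with a median of 0.041 after normexp with quantile normalization. G2 and M phase genes higher numbered 5 with median scaling, 1 and 0 after normexp and 0 at 4-fold, with medians of 0.68 and 0.51 after normexp. In female Tg minus male WT, S phase genes higher numbered 3 with median scaling, 3 and 1 after normexp and 0 at 4-fold. G2 and M phase genes higher numbered 3 and 2 after normexp and 1 at 4-fold, with medians of 0.78 and 0.57, and 1 was lower at 1.5-fold. For the 2 comparisons of male Tg E2 and female Tg with male WT, counts over all genes with median scaling and normexp are given above. No paired analysis was possible because each group has a single array, and for the same reason no replicate could be left out.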
